A study of Drosophila melanogaster with 2 samples.

Results

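The 5S ribosomal RNA genes of Drosophila melanogaster were examined for the signal of dBigH1, the linker histone H1 variant of the fly germline. Members were the genes whose symbol or FlyBase description in the deposited gene table began with 5SrRNA or contained 5S rRNA or 5S ribosomal RNA, a rule that used no measured value. It found 100 of the 15421 listed genes, of which 96 were named as genes and 4 as pseudogenes (5SrRNA-Psi). A RefSeq table for Release 6 of the genome also lists 100, with 96 genes and 4 pseudogenes, so no copy of that annotation was missing from the comparison. Chromatin came from whole testes of adult w1118 males, a white-eyed laboratory stock. One group was DNA immunoprecipitated with an antibody against dBigH1 and the other was input DNA, taken with no antibody, with 1 library in each. Both were pooled material, from testes freed of accessory glands by hand, so germ cells of every stage and somatic cells of the testis were mixed. With 1 library a group there is no replicate error and no test, and every interval below is an exact 95% interval that covers counting error only (Clopper-Pearson for a ratio of reads).

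5S rRNA is a small RNA of the large ribosomal subunit. RNA polymerase III transcribes it from a promoter inside the gene that is recognised by the zinc-finger factor TFIIIA, the La protein binds the end of new transcripts, and the ribosomal proteins RpL5 and RpL11 carry the RNA into the ribosome. In flies the genes form a tandem array on chromosome 2R, apart from the nucleolar genes for the larger rRNAs. Linker histones bind where DNA enters and leaves the nucleosome, and 5S genes have long served as a model for them: in the frog Xenopus, H1 represses the oocyte-type 5S genes in somatic cells.

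The 100 copies lay on 2R between 15617067 and 15653783 (build dm3), a stretch of 36717 bp, and all were annotated on the minus strand. Most were 135 bp long (94 copies), and the others were between 134 and 144 bp. Start positions of neighbouring copies were a median of 369 bp apart (359 to 402 bp), and exactly 369 bp for 35 of the 99 steps. No other listed gene overlapped a copy. The copies are near-identical repeats read with 50 nt reads, and the placement of reads with several matches is not stated in the labels or file headers. Reads may therefore have been divided among copies, values of single copies are uncertain, and reads summed over copies are the main quantity. The 100 copies are also not replicates of one another.

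The 5S array carried more dBigH1 signal than its DNA content gave. Summed over the 100 copies there were 2041 input reads and 578 dBigH1 reads, which is 0.0160% and 0.0202% of the 12747726 and 2864636 reads of the libraries. The read ratio of dBigH1 over input, scaled by these totals, was 1.34 on the log2 scale above that of the median gene (1.20 to 1.47), or 2.53-fold (2.30 to 2.77). The choice of reference sets this size. The median gene itself had a log2 read ratio of -1.005 by library totals, so against the totals alone the 5S value was 0.33, and against reads summed over all genes it was 0.94. Each of these values was above 0. Ratios below are relative to the median gene.

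Reads per copy were few. In input a copy had 8 to 52 reads, with a median of 20, and in dBigH1 it had 1 to 11 reads, with a median of 6. The RPKM, a read count corrected for gene length and library size, ranged over copies from 4.58 to 30.2 in input with a median of 11.6, and from 2.42 to 28.4 in dBigH1 with a median of 15.5. The median of all listed genes was 8.18 RPKM in input and 4.04 in dBigH1. The 2 libraries thus stood in opposite order, with the median 5S copy higher in dBigH1 than in input and the median gene lower.

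**Figure D1:**
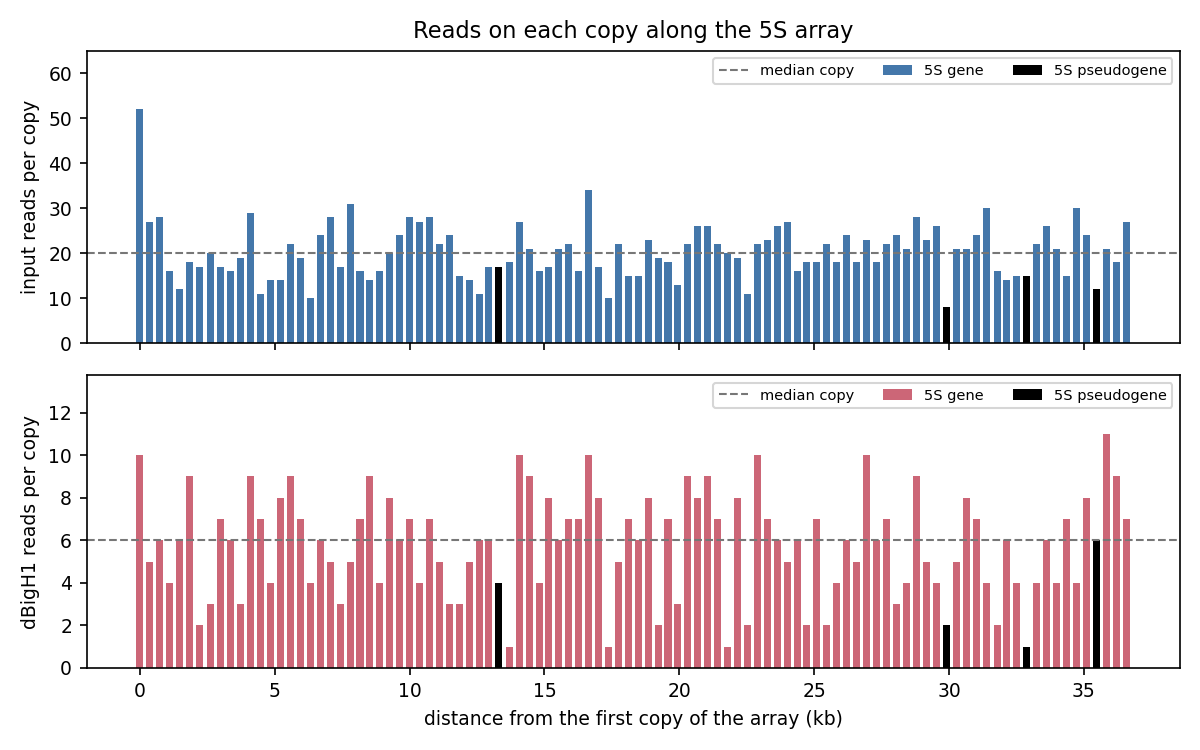
Reads on each of the 100 copies against the distance of its start from the first copy in kb, with input above and dBigH1 below, 5S genes in colour, the 4 pseudogenes in black and the median copy as a dashed line. Input is highest at the first copy, with 52 reads, while dBigH1 lies between 1 and 11 reads along the whole array.

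By the values listed for single copies, most copies showed the surplus. If reads were divided among copies, such counts cannot show how it was spread over them. On the RPKM scale, log2((dBigH1 RPKM + 1)/(input RPKM + 1)), the median copy was 1.14 above the median gene, with quartiles of 0.63 and 1.59. By this ratio 79 of 100 copies exceeded the median gene by 1.5-fold or more, as did 12.9% of all genes, and 2 copies fell short of it by that size, against 11.5% of all genes. On reads, 93 copies had a ratio above that of the median gene and 7 below. The interval of the single copy lay wholly above the median gene for 43 copies, against 17.9% of all genes. It lay wholly below for none of them, against 9.41% of all genes, and for 57 copies it spanned the median gene. A copy with about 6 dBigH1 reads can place only a large difference outside its interval.

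**Figure D2:**
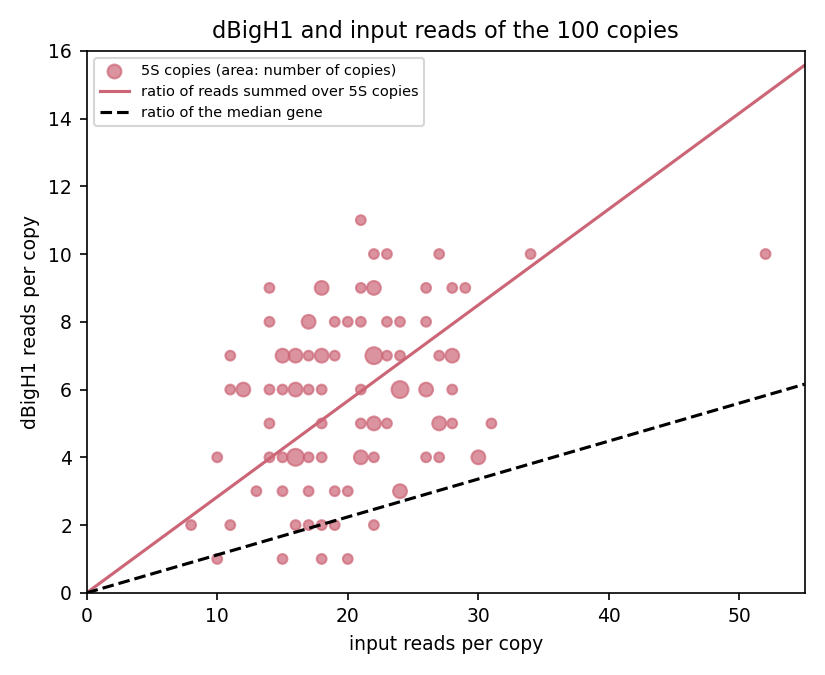
dBigH1 reads against input reads for the 100 copies, with the area of a point showing how many copies share it. The solid line is the ratio of reads summed over the copies and the dashed line that of the median gene, and 93 copies lie above the dashed line.

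The copies at the extremes rested on few reads. 5SrRNA:CR33429 (FBgn0053429, 2R, 15625591 to 15625725) had the highest read ratio, with 9 dBigH1 reads against 14 input reads, a log2 value of 2.52 above the median gene (1.13 to 3.83). The lowest was 5SrRNA:CR33393 (FBgn0053393, 15638863 to 15638997), with 1 dBigH1 read against 20, at -1.16 (-6.54 to 1.48). Both intervals contain the pooled value of 1.34. The most dBigH1 reads, 11, fell on 5SrRNA:CR33355 (FBgn0053355, 15652914 to 15653048), which had 21 input reads and a ratio of 2.23 (1.03 to 3.34). The fewest input reads, 8, fell on the pseudogene 5SrRNA-Psi:CR33371 (FBgn0053371, 15646979 to 15647115), with 2 dBigH1 reads and a ratio of 1.16 (-2.11 to 3.48). Besides 5SrRNA:CR33393, the copies with 1 dBigH1 read were 5SrRNA:CR33415, 5SrRNA:CR33405 and the pseudogene 5SrRNA-Psi:CR33363, with 18, 10 and 15 input reads.

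The 2 ends of the array differed in input. The first copy by coordinate, 5SrRNA:CR33452 (FBgn0053452, 15617067 to 15617201), had 52 input reads, the most of any copy, where the next had 34. It had 10 dBigH1 reads, and its log2 read ratio of 0.78 (-0.36 to 1.77) was below the pooled one, with an interval that contains it. The last copy, 5SrRNA:CR33353 (FBgn0053353, 15653649 to 15653783), had 27 input and 7 dBigH1 reads. Without the first copy the pooled ratio was 1.35.

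Beyond the first copy, input varied somewhat more among copies than counting scatter gives, while dBigH1, with fewer reads per copy, was close to it. The variance of reads over copies divided by their mean, which is 1 for pure counting scatter, was 1.92 in input and 1.01 in dBigH1. Without the first copy it was 1.45 in input and 0.998 in dBigH1, and over the 93 other genes of 135 bp it was 1.27 and 0.88. Across copies, input and dBigH1 reads had a Pearson correlation of 0.33 and a Spearman correlation of 0.27, or 0.29 and 0.25 without the first copy. These are descriptions over repeats that may share reads.

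Genes and pseudogenes of the array were not told apart by their ratio. The 96 genes had 565 dBigH1 reads against 1989 input reads, a log2 ratio of 1.34 (1.21 to 1.48). The 4 pseudogenes had 13 against 52, a ratio of 1.16 (0.16 to 2.06). The difference of 0.18 had an interval from -0.73 to 1.20, wide enough to hold a large difference in either direction. Reads that match both may also have been divided between them, so this comparison cannot show whether their ratios differ. Per copy the pseudogenes had fewer reads in both libraries, with a mean RPKM of 7.17 in input and 7.98 in dBigH1 against 12.0 and 15.2 for the genes.

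In 4 consecutive blocks of 25 copies each, counted from the low coordinate, the pooled log2 ratio was 1.38 (1.11 to 1.65), 1.38 (1.11 to 1.65), 1.36 (1.09 to 1.63) and 1.22 (0.94 to 1.497). The widest gap between a block and the rest of the array was -0.15, for the fourth, with an interval from -0.48 to 0.16. On the authors' deposited MAnorm score, in its own units, the block medians were 0.54, 0.50, 0.41 and 0.05 above the median gene, so the fourth was also the lowest there. Copies were also grouped by the distance to the neighbouring start on the side of their 5′ end. For steps shorter than 369 bp (33 copies) the ratio was 1.47 (1.24 to 1.70), for 369 bp (35 copies) 1.27 (1.04 to 1.502), and for longer steps (31 copies) 1.27 (1.02 to 1.52). Short and 369 bp steps differed by 0.20 (-0.13 to 0.53), an interval that contains 0. If reads were divided among copies, the blocks and step groups would share reads. These values therefore cannot show whether the surplus was even along the array.

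Input gave a measure of the DNA behind each annotated copy. The mean input RPKM of the copies was 11.8, which is 1.38 times the median gene of arms 2L, 2R, 3L and 3R (1.32 to 1.44). Against the median of genes of 100 to 200 bp on the same arms it was 1.22 times. In dBigH1 the mean of 14.9 RPKM was 3.52 times the median gene of the arms (3.24 to 3.82). How many 5S copies the stock carries and how reads were placed both enter the input value, and they cannot be told apart here. The male origin of the DNA was visible in input, where the median RPKM was 4.74 on the X and 8.60 on the autosomal arms.

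Short genes as a class lay above the median gene too, but less far. Genes that lacked reads in one library or both are not among the values used here. The 264 other genes of 100 to 200 bp had 723 dBigH1 reads against 4289 input reads, a pooled log2 ratio of 0.59 (0.47 to 0.70). The 5S copies lay 0.75 above them (0.57 to 0.93). Of these genes 36.4% passed 1.5-fold above the median gene, in place of 79 of 100 copies and 12.9% of all genes. Below it 14.8% passed, against 11.5% of all genes. Among the short genes, 48 overlapped no other gene, as is the case for 5S, and the 5S copies lay 0.54 above those. Only 4 short genes had at least 10 dBigH1 reads, a choice that keeps genes high in dBigH1, and the 5S copies lay below those, at -0.39. Genes shorter than 100 bp had a pooled ratio of 0.80 (0.70 to 0.89) and genes of 201 to 500 bp 0.51 (0.46 to 0.55). Genes of 501 to 1000 bp were at 0.31 (0.30 to 0.33) and genes of 1001 to 3000 bp at -0.11 (-0.12 to -0.10). The ratio did not fall steadily with length, as genes longer than 3000 bp were at 0.470 (0.467 to 0.473). Pooled over all listed genes it was 0.396 (0.394 to 0.399).

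**Figure D3:**
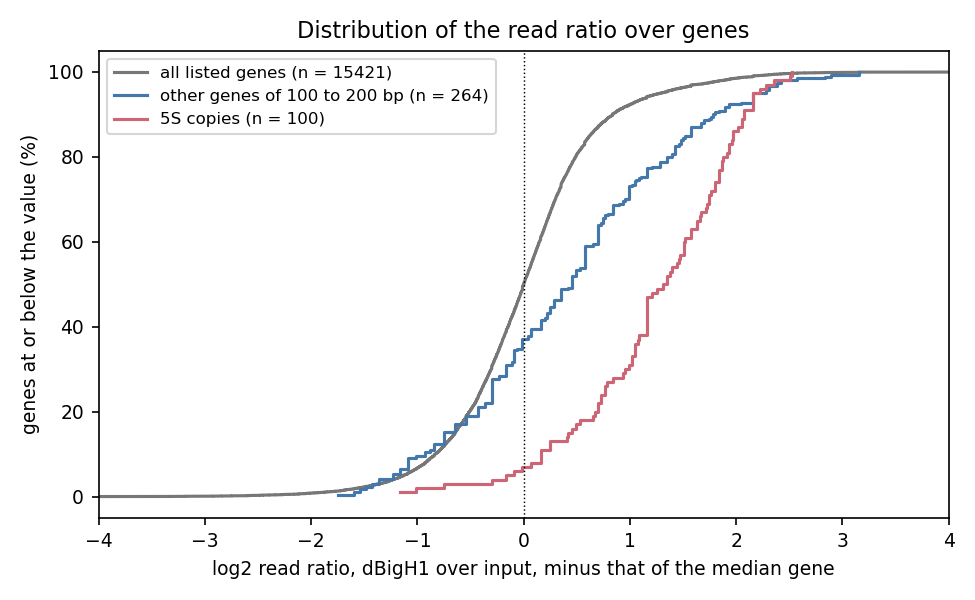
Cumulative share of genes, in percent, against the log2 read ratio minus that of the median gene, for the 100 5S copies, the 264 other genes of 100 to 200 bp and all 15421 listed genes. The curve of the 5S copies lies to the right of the other curves over most of its range, with a median of 1.33 against 0.46 for the short genes.

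Other genes for small structural RNAs, most of them transcribed by RNA polymerase III, did not share one level. The 230 tRNA genes had 501 dBigH1 reads against 2832 input reads, a pooled log2 ratio of 0.66 (0.52 to 0.80), and the 5S copies lay 0.68 above them (0.48 to 0.87). Among tRNA genes, 40.4% passed 1.5-fold above the median gene, against 12.9% of all genes. Below it 13.0% passed, against 11.5% of all genes. Their highest member was transfer RNA:ser774:12Ef, on 3 dBigH1 and 3 input reads, at 3.16 (0.26 to 6.06). The lowest was transfer RNA:CR31669, with 1 against 26, at -1.54 (-6.90 to 1.06).

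The U6 genes, which encode the catalytic snRNA of the spliceosome, stood above 5S. The copy U6 at 96Ac had 10 dBigH1 reads and 10 input reads, a log2 ratio of 3.16 (1.74 to 4.58). U6 at 96Aa, which overlaps another listed gene, had 9 against 15, a ratio of 2.42 (1.05 to 3.71). U6 at 96Ab had 10 against 18, a ratio of 2.31 (1.03 to 3.50). Pooled over the 3 genes the ratio was 2.59 (1.86 to 3.30), and 5S lay below it by a difference of -1.25 (-1.98 to -0.51). These genes are neighbours on 3R with near-identical RNA sequences, so they do not give separate values.

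The remaining small RNA genes were near or below the median gene. 7SK, which holds the elongation factor P-TEFb inactive, had 11 dBigH1 reads against 90 input reads, a log2 ratio of 0.13 (-0.93 to 1.03). The 7SL RNA genes encode the RNA of the signal recognition particle. 7SL CR42652 was at -0.23 on 6 dBigH1 reads (-1.73 to 0.97) and 7SL CR32864 at -1.11 on 4 (-3.02 to 0.31). Ribonuclease P RNA, which processes tRNA ends, was at -0.23 on 4 dBigH1 reads (-2.17 to 1.23). Ribonuclease MRP RNA, which acts in rRNA processing, was at -0.38 on 5 (-2.05 to 0.93). The genes of both ribonuclease RNAs overlap another listed gene. The list as planned held 8 genes, the U6 genes among them. Pooled over all 8 the ratio was 0.50 (0.08 to 0.90), and 5S lay 0.84 above it (0.42 to 1.28). Over the 5 genes left without U6, whose genes were the highest of the list, it was -0.30 (-0.89 to 0.24). There 5S lay 1.64 above it (1.08 to 2.25). Leaving out Ribonuclease P RNA as well, whose transcription in flies has been assigned to polymerase II, gave -0.31 (-0.95 to 0.27). Of the genes for the larger rRNAs, a copy of 5.8S rRNA on an unplaced scaffold (5.8SrRNA:CR40454) was listed, with 3 dBigH1 reads against 6, at 2.16 (-0.47 to 4.39).

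By reads, the other long tandem array, the histone genes on 2L, stood higher than 5S. Its 111 listed genes had 7530 dBigH1 reads against 18750 input reads, a pooled log2 ratio of 1.84 (1.80 to 1.88), and 5S lay below it by a difference of -0.50 (-0.65 to -0.36). The threshold of 1.5-fold above the median gene was passed by all 111, against 12.9% of all genes. The highest was a copy of His1, the somatic linker histone, at 2.38 (2.05 to 2.70), and the lowest a copy of His4 at 0.99 (0.40 to 1.55). Histone genes are repeated copies as well, so reads may have been divided among them and values of single copies are uncertain. Both arrays had a mean input RPKM above the median gene, at 11.8 for 5S and 22.3 for the histone genes. On the median MAnorm score, in the authors' deposited table, the arrays were close. There 5S lay 0.37 and the histone genes 0.36 above the median gene.

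**Figure D4:**
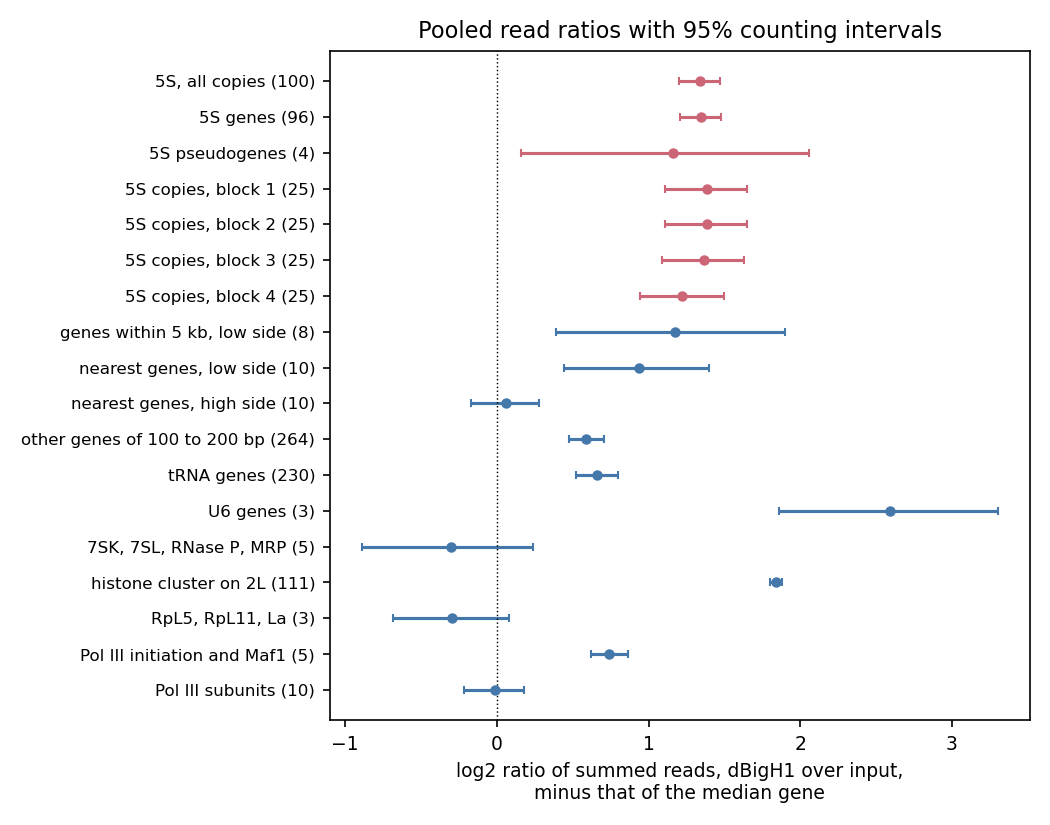
Log2 ratio of reads summed over each group of genes, dBigH1 over input, minus that of the median gene, with 95% counting intervals and the number of genes in parentheses. 5S groups are in red and other groups in blue. The 5S blocks lie between 1.22 and 1.38, above tRNA genes at 0.66 and below the histone cluster at 1.84 and the U6 genes at 2.59.

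By reads the flanks of the array differed, though not in the same order on the deposited score. On the side of lower coordinates 8 short genes lay within 5 kb, 7 tRNA genes and a snoRNA gene, and they were grouped after their values were seen. Together they had 20 dBigH1 reads against 79 input reads, a log2 ratio of 1.18 (0.39 to 1.899), and 5S differed from them by 0.16 (-0.58 to 0.96). The nearest, transfer RNA:CR30449, was 209 bp from the array and had 3 dBigH1 reads against 8, at 1.74 (-0.81 to 3.80). On the other side the nearest gene was Or56a, an odorant receptor gene 3183 bp away, with 17 dBigH1 reads against 149 input reads and a ratio of 0.03 (-0.79 to 0.75).

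Taken 10 to a side, the nearest genes had a pooled ratio of 0.93 (0.44 to 1.40) on the low side and 0.06 (-0.17 to 0.28) on the high side. The 5S copies lay 0.40 above the low side (-0.08 to 0.92), an interval that contains 0, and 1.28 above the high side (1.02 to 1.54). Over the 20 genes the difference was 1.14 (0.90 to 1.39). Gene length moved with side: the median width was 72 bp on the low side and 705 bp on the high side, and its part in the difference was not tested. On medians of RPKM ratios, which give each gene the same weight, 5S lay 0.58 above the 20 genes. On the median MAnorm score, in the authors' deposited table, the order of the sides was the opposite, with the low side 0.21 and the high side 0.45 above the median gene, and the 8 genes within 5 kb 0.03 above it.

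**Figure D5:**
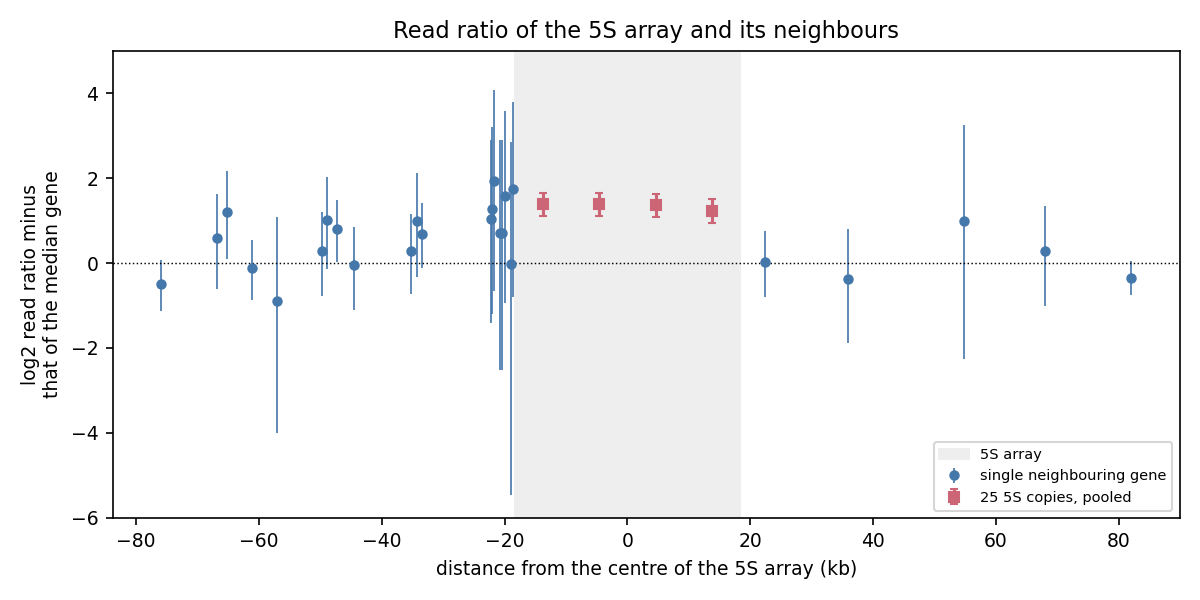
Log2 read ratio minus that of the median gene against the distance from the centre of the 5S array in kb, for single neighbouring genes in blue and the array in 4 blocks of copies in red, with 95% counting intervals. The array is shaded. The short genes at its left edge have wide intervals, with values from -0.01 to 1.94, and Or56a, the first gene to the right, is at 0.03.

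Genes for proteins that make or bind 5S rRNA did not stand with the array. RpL5 had 35 dBigH1 reads against 287 input reads, a log2 ratio of 0.12 (-0.43 to 0.63). RpL11, also on 2R, had 14 against 166, at -0.41 (-1.31 to 0.38). La had 15 against 247, at -0.88 (-1.74 to -0.13), the only one of the 3 whose interval left out the median gene. TfIIIA, Rpf2 and Rrs1 were searched by these symbols only, were not matched to a listed gene and are not analysed here. They may be listed under other names.

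Of 5 genes for initiation and its control, 4 had intervals that held the median gene, as did 72.7% of all genes. Brf, which encodes a subunit of the initiation factor TFIIIB, was at 0.01 (-0.21 to 0.22). Bdp1, listed as CG9305 and also a part of TFIIIB, was at -0.27 (-0.86 to 0.27). Trf, the TBP-related factor that works with Brf in flies, was at -0.24 (-1.15 to 0.55), and Tbp, the TATA-binding protein, at -0.54 (-1.37 to 0.20). The exception was Maf1, a repressor of polymerase III listed as CG40196 on an unplaced scaffold, with 408 dBigH1 reads against 1117 and a ratio of 1.71 (1.54 to 1.87). Summed over the 5 genes the ratio was 0.74 (0.62 to 0.86), and without Maf1 it was -0.08 (-0.27 to 0.11). Among subunit genes of the polymerase itself, Polr3J was not matched to a listed gene. Of the other 10, 1 passed 1.5-fold above the median gene, against 12.9% of all genes, and 0 passed it below, against 11.5%. That gene was Polr3F, listed as CG5380, at 0.81 (0.23 to 1.36). The lowest was Polr3I, listed as Rcp, with 6 dBigH1 reads against 76, at -0.50 (-2.00 to 0.68). Summed over the subunits the ratio was -0.01 (-0.21 to 0.18), and 5S lay 1.35 above it (1.11 to 1.59).

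The deposited MAnorm column, whose making is not stated and whose values look like a standardised score, placed the array less far from the median gene. In the authors' deposited table the copies had scores from -1.82 to 2.47 with a median of 0.29, which is 0.37 above the score of the median gene, where the SD over all genes was 0.999. By score, 63 of the 100 copies were above the median gene, in place of 93 by reads. The first copy, 5SrRNA:CR33452, had a score of -1.67. The histone cluster lay 0.36 above the median gene on the same score, the tRNA genes lay below it, at -0.28, and the other genes of 100 to 200 bp were at 0.07.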

How the data were processed

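DNA from dBigH1 immunoprecipitation and from input of whole testes was sequenced as 1 library each. Per the labels' protocols, 2000 testes were dissected, chromatin was sheared in pools of 1000 (fragments of 200 to 500 bp), and 3.5 ng of DNA per library went through 18 PCR cycles and single-end sequencing of 50 nt. The genome build was dm3, and the tools were R 2.15, Bowtie2, CASAVA 1.9 and FastQC 0.10, per the submitters' processing notes. The rule for assigning reads to genes is not stated there.

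Per the file headers, the authors deposited log2 RPKM values for 15421 genes. Read as log2(RPKM + 1), 100% of values gave whole reads within 0.01 read, from which reads and library totals were recovered. The authors' deposited MAnorm column, headed as a log2 fold change, had a mean near 0 and an SD of 0.999. It was therefore taken as a standardised score, whose making by the authors is not stated per the file headers, and used as an alternative.

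Reads were summed over copies, and log2 ratios scaled by library totals were set against the median ratio of all genes. Intervals are exact Clopper-Pearson intervals of the share of reads from dBigH1. Intervals of differences are exact conditional intervals of the odds ratio (scipy 1.17.1), and those of RPKM relative to the arms are exact Poisson intervals of the summed reads. All of these intervals cover counting error only. Reads carried no molecular identifiers, so PCR copies of a molecule could not be told from separate molecules. The intervals may therefore be too narrow. RPKM ratios used a pseudocount of 1, which understates the change of low genes, and left out genes below an RPKM of 1 in both libraries (15419 stayed, all 100 5S copies among them). With 1 library a group, no p-value was computed. Genes were named by rule: the array's first and last copies, extremes of ratio and reads, nearest neighbours, all genes of the lists of 5S partners and other small RNAs, and the highest and lowest of other lists. Brf, Bdp1 and Trf, the copies with 1 dBigH1 read and the genes within 5 kb of the array were named outside that rule, after their values were seen. Members and lists were chosen with earlier results of these data known. A RefSeq table of Release 6 served for names and for the count of annotated 5S copies. The functions were tested on simulated reads.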

Additional observations from a re-analysis of the deposited data

How the results depend on the processing

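The pooled 5S ratio of 1.34 became 0.33 with library totals and no centring, and 0.94 against reads summed over all genes, an alternative chosen after seeing the data. It stayed between 1.28 and 1.35 with the other references and subsets of copies tried. The median RPKM ratio of 1.14 became 1.31 and 0.74 with pseudocounts of 0.1 and 5, and 0.37 in score units. It was 0.74 when an RPKM of at least 5 in each library was required, which 95 copies met. The copies left out lay below the median copy, so this fall came from a higher reference and not from the copies. The median ratio was 1.59 for the 6 copies with at least 10 dBigH1 reads, which by construction are high in dBigH1. The 79 copies at least 1.5-fold higher became 37 with no centring, where 2.88% of all genes passed. The 2 copies lower by that size became 1 with a pseudocount of 5 (2.45% of all genes), 0 at 2-fold (2.91%) and 13 with no centring (71.0%). On the score, which gives no fold, 41 copies lay more than 0.58 score units above the median gene (27.0% of all genes) and 15 as far below (24.1%). The difference of 0.75 from other genes of 100 to 200 bp turned to -0.39 against the 4 with at least 10 dBigH1 reads, which by construction are high in dBigH1, and was 0.54 against the 48 overlapping no other gene. The difference of 1.14 from the 20 nearest genes was 1.46 with 5 genes a side and 0.58 on medians. Input RPKM over the arms, 1.38, was 1.22 against short genes. For these shifts the cause was not tested, apart from those named. No paired analysis was possible because each group had 1 library. Depth limits single copies, with a median of 6 dBigH1 reads.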
